A study of Mus musculus with 9 samples.

Results

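Transcript levels of 44 genes of the unfolded protein response and of the amino acid stress response were compared in 3T3 cells, a line of immortalised fibroblasts from mouse embryos. The 44 genes were chosen by name for their place in these pathways, and all 44 were measured among 19698 genes on the arrays (RNA hybridised to Affymetrix mouse Gene 1.0 ST arrays). They comprised 8 sensors and regulators, 3 membrane-bound factors of the CREB3 family, 19 targets of the ATF4 type (mostly enzymes and transporters of amino acids) and 14 chaperones and degradation factors of the endoplasmic reticulum (ER). There were 3 groups of 3 arrays of independent biological replicates, each prepared on another day. In cultures measured in bulk, fewer cells expressing a transcript and less of it per cell cannot be told apart.

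BAF-knockdown cells had been exposed for 1 h to mouse TNF-α (5 ng per ml). They stably expressed 1 short hairpin RNA against a sequence shared by Brg1 and Brm, the catalytic subunits of BAF, a nucleosome remodeller, from the mouse U6 promoter of a retroviral vector that also carries green fluorescent protein, and had been sorted for high fluorescence. TNF-treated control cells received the same TNF-α dose for the same 1 h without the knockdown, and unstimulated control cells received neither. All cultures were subconfluent. Unstimulated knockdown cells were not analysed here, so a difference between knockdown and control cells cannot be told apart from one that was present before TNF-α, and the sources used here do not give the vector, if any, of the control cells.

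The unfolded protein response is driven by 3 sensors in the ER membrane, Ire1 (gene Ern1), Perk (Eif2ak3) and Atf6. Ire1 splices the mRNA of the transcription factor Xbp1, Atf6 is cut to release a transcription factor, and both raise chaperones such as BiP (Hspa5) through a promoter motif called the ER stress response element. Perk phosphorylates the initiation factor eIF2α, as do kinases that sense amino acid shortage or viral RNA, which slows translation in general while favouring that of Atf4. Atf4 then acts through another motif, the CEBP-ATF response element, at genes of amino acid synthesis, transport and redox balance, so that a shortage of amino acids can raise genes of amino acid supply without the chaperones. Splicing, cleavage and phosphorylation are not seen by an array that reads total transcript levels.

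The promoter sequences that hold these motifs are printed here because they are what distinguishes the ER chaperone genes from the ATF4-type genes by the known biology of the pathways. RefSeq promoter windows (GRCm38.p6, 250 bases before to 50 after the transcription start) matched 38 of the 44 genes, with 41 windows in all. The ER stress response element was searched on both strands as CCAAT, any 9 bases and CCACG. It stood in 7 of 13 windows of ER chaperone genes (53.8%), in 0 of 18 windows of ATF4-type genes and in 39 of 32851 windows in the whole table (0.119%). The 7 genes were Hspa5, Hsp90b1, Calr, Canx, Pdia6, Creld2 and Dnajc3. Each is printed with 10 bases on either side, 5′ to 3′ on the strand of the gene, with the match in capitals (CCAAT at the left end or its reverse complement ATTGG at the right end).
Hspa5, chr2:34772015-34772053, + strand: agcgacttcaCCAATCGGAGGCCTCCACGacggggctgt
Calr, chr8:84847065-84847103, - strand: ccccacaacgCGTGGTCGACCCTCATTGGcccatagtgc
Canx, chr11:50325790-50325828, - strand: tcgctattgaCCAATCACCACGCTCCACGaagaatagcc
Pdia6, chr12:17266481-17266519, + strand: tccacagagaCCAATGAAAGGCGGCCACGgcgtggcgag
Creld2, chr15:88819510-88819548, + strand: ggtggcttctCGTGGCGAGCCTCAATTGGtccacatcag
Dnajc3, chr14:118937817-118937855, + strand: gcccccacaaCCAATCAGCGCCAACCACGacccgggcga
Hsp90b1 (2 matches), chr10:86705523-86705666, - strand: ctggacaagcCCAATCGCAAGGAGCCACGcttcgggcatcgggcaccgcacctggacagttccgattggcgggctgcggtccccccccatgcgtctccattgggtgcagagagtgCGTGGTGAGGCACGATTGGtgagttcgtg

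The CEBP-ATF response element was searched on both strands as TGATGNAAN. It stood in 6 of 18 windows of ATF4-type genes (33.3%), in 1 of 13 windows of ER chaperone genes (7.69%, Herpud1) and in 3.95% of all windows. Slc7a11 held 2 matches facing each other, and in Trib3 the match lay 13 bases after the start. The 6 ATF4-type windows are printed in the same way, with the match in capitals (ending in ATCA where the motif lies on the other strand).
Asns, chr6:7693214-7693242, - strand: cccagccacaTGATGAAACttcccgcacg
Trib3, chr2:152344029-152344057, - strand: ttagctcaggTTTACATCAgccgggcggg
Chac1, chr2:119351038-119351066, + strand: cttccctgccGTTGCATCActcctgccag
Slc7a11, chr3:50443643-50443689, - strand: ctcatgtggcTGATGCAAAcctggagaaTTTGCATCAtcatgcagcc
Pck2, chr14:55540152-55540180, + strand: agccttcaaaGTTACATCAgtatcttaca
Vldlr, chr19:27216809-27216837, + strand: agcagcaataGTTGCATCAgcgctcctag

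The motif preferred by Xbp1 (TGACGTGG) had no match in the windows of these genes, against 0.676% of all windows. The AP-1 motif (TGANTCA, which reads the same on both strands) stood in the windows of Hspa5, Sel1l, Ddit3 and Eif2ak3, against 7.81% of all windows. The NF-kB motif stood in those of Creld2 and Edem1, against 4.51% of all windows. These are matches of letters only, and no match says only that the letters are not in this window.

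**Figure D1:**
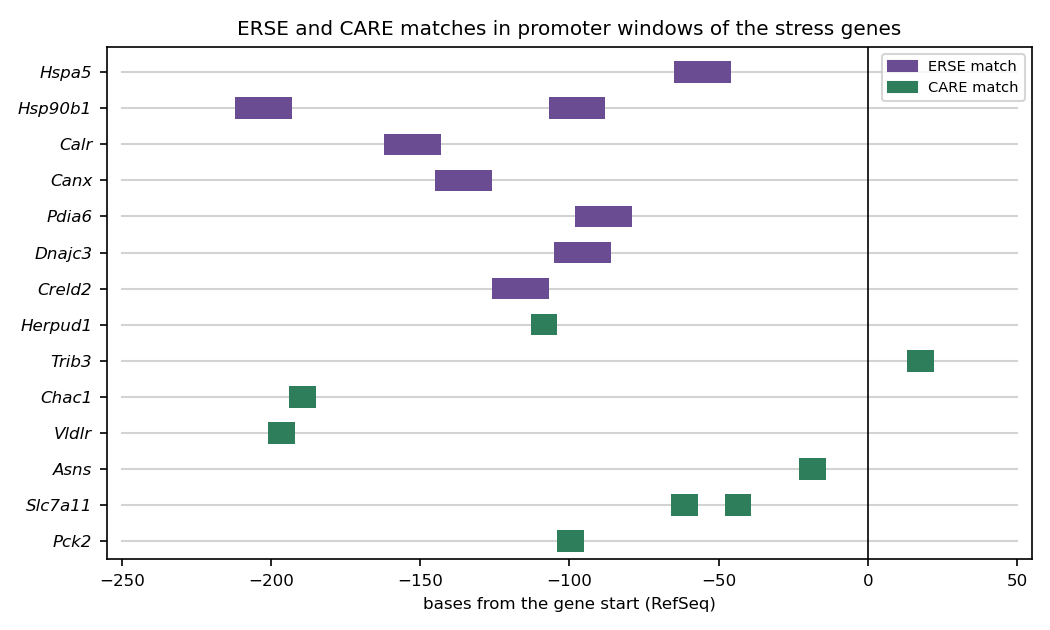
Positions of matches to the ER stress response element (ERSE) and the CEBP-ATF response element (CARE) in the RefSeq promoter windows of the genes that had one (horizontal axis, bases from the transcription start; 1 row per gene). ERSE matches lie in 7 ER chaperone genes, and CARE matches in 6 ATF4-type genes and Herpud1.

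Values are log2 signals, and a difference of 1 is a doubling of signal. Levels of different genes were not compared, because probes differ in brightness. A gene was called when its limma p adjusted over all 19698 genes was under 0.05, and SE is the standard error of the fitted difference. The targeted transcript Smarca4 (Brg1) fell to 10.50, 10.64 and 10.25 in knockdown cells, against 11.62, 11.53 and 11.56 in TNF-treated control cells, a difference of -1.11 ± 0.0887 (SE, limma adjusted p = 0.00362). Smarca2 (Brm) averaged 9.21 ± 0.15 in knockdown cells and 9.57 ± 0.22 in TNF-treated control cells (SD, n = 3 each), a difference of -0.36 that was not called (limma adjusted p = 0.734). Its 3 pairs gave -0.39, -0.43 and -0.26, and the 2 groups did not overlap, as in 5.47% of all genes. The study itself reports lower levels of both transcripts in its knockdown fibroblasts by quantitative RT-PCR. The falls it reports are larger than those on these arrays (2.15-fold for Smarca4 and 1.29-fold for Smarca2). The fibroblast markers Vim, Fn1 and Col1a1 gave signals far above the array medians (7.77 to 7.83), whereas Lum lay below the first quartile of the arrays (6.38 to 6.46). Thy1 lay below the medians, averaging 7.43, 7.47 and 7.52 in knockdown, TNF-treated control and unstimulated cells. Of the leukocyte, epithelial and endothelial markers, Cd68 and Krt8 lay above the medians. All 10 fibroblast markers lay below 0 in the knockdown comparison, against 45.5% of all genes, with a median difference of -0.155. Vim lay nearest to 0, at -0.00573. Limma called 0, and 3 were lower at an unadjusted p under 0.05 (4.75% of all genes). A fit with the replicate number as a block called 3 lower, Col3a1, Pdgfra and S100a4, against 2.33% of all genes. The blocked fit called 0 of all genes without replicate 1, so the calls it adds, here and in the lists below, are lost there. Leukocyte markers (8) and epithelial and endothelial markers (9) had medians of 0.0329 and 0.0423, with 0 called. The part of the fibroblast genes in the results below was not tested.

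Differences after 1 h of TNF-α were small in most of the 44 genes, with a median size of 0.0447 (0.0443 over all genes). Limma called 0 of the 44 genes higher and 0 lower, where it called 0.137% of all genes higher and 0% lower. With the replicate number as a block, 0 of the 44 were called in either direction, against 0.366% of all genes higher and 0.0305% lower. Without adjustment, p was under 0.05 for 1 higher gene and 0 lower genes (1.85% and 1.22% of all genes), and the methods' t-test with its threshold on the difference picked 0 higher and 0 lower (0.543% and 0.0406%, and 0.00508% and 0% after adjustment). A difference over 0.3 alone was reached by 2 genes upwards and 0 downwards (1.26% and 0.254%), and 19 of the 44 lay above 0, against 48.6% of all genes, and 25 below, against 51.4%. The median difference was -0.0335 over the 19 ATF4-type genes, -0.0244 over the 14 ER chaperone genes and -0.00204 over all genes. The sign of these medians rested on single arrays. That of the ATF4-type genes became 0.0226 without control_st_2, and that of the ER chaperone genes 0.0151 without control_ns_1 and 0.0145 without control_st_2. The 95% intervals of the 14 ER chaperone differences together reached from -0.29 to 0.28, and those of the ATF4-type genes from -0.69 to 0.74.

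The gene nearest to a call after TNF-α was Ppp1r15a (Gadd34), which encodes the subunit that directs a phosphatase to eIF2α and so ends the translational block. Its signal was 8.78, 8.75 and 8.71 in TNF-treated control cells, against 8.36, 8.47 and 8.45 in unstimulated cells. All 3 treated arrays lay above all 3 unstimulated arrays, which held for 3.19% of all genes. The difference was 0.32 ± 0.0618 (SE, 1.25-fold), with an unadjusted p of 0.000661 but a limma adjusted p of 0.23. In knockdown cells Ppp1r15a measured 8.62, 8.59 and 8.79, a range that overlapped that of TNF-treated control cells (difference -0.08, adjusted p = 0.854).

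The remaining 7 sensors and regulators differed after TNF-α by between -0.08 (Eif2ak3) and 0.05. Atf4 itself was 10.72, 10.56 and 10.66 in TNF-treated control cells and 10.65, 10.54 and 10.65 in unstimulated cells, a difference of 0.03. Atf5, a relative of Atf4 that is also translated under stress, and Ddit3 (Chop), which promotes death under prolonged ER stress, each differed by 0.05. Xbp1 differed by 0.01, Ern1 by 0.03 and Atf6 by -0.02, each by less than its SE. Among the wider list of 19 other regulators of both responses, 1 gene rose after TNF-α (0.137% of all genes). At an unadjusted p under 0.05, 3 were higher (1.85% of all genes). The called gene was Atf3, a stress-inducible repressor and activator of transcription, with 8.99, 8.76 and 9.0 in TNF-treated control cells against 8.19, 8.16 and 8.24 in unstimulated cells (0.72 ± 0.0966, limma adjusted p = 0.0388). The call for Atf3 was lost when any of control_ns_1, control_ns_2, control_ns_3, control_st_1, control_st_3 or BAFkd_st_3 was left out, with adjusted p up to 0.253, whereas its difference stayed between 0.68 and 0.80. Nfe2l2 (Nrf2), the oxidative stress factor, differed by 0.28 without a call, and the lowest of the list was Jdp2 at -0.14. In unstimulated, TNF-treated control and knockdown cells Nfe2l2 averaged 11.81, 12.09 and 11.87.

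Of the ATF4-type genes, the highest difference after TNF-α was that of Slc7a11, the cystine transporter that feeds glutathione synthesis. Slc7a11 gave 10.28, 9.66 and 10.05 in TNF-treated control cells, against 9.85, 9.49 and 9.66 in unstimulated cells. Each treated array exceeded the unstimulated array of its own replicate number, by 0.43, 0.16 and 0.39, but the groups overlapped and the difference of 0.33 ± 0.181 was not called. It became 0.19 without control_st_1 and 0.50 without control_st_2. The lowest was that of Ddit4 (Redd1), an inhibitor of mTORC1, with 10.27, 10.45 and 10.46 in TNF-treated control cells against 10.87, 10.71 and 10.47 in unstimulated cells. The treated arrays all lay below the unstimulated ones, by as little as 0.02 in the pair of replicate 3, as they did in 2.78% of all genes, and the difference was -0.29 ± 0.177. Phgdh, which starts serine synthesis, differed by -0.19, and Slc7a5, the large neutral amino acid transporter, by -0.17. Slc7a3 differed by 0.10 and Mthfd2 by 0.05.

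The ER chaperone genes spanned a narrower range after TNF-α, between -0.07 (Pdia4, a disulphide isomerase) and 0.04 (Herpud1, a component of the ER degradation machinery). Next to these came Hsp90b1 at -0.06 and Pdia3 at -0.05 at the lower end and Edem1 at 0.04 at the upper end. BiP (Hspa5), the central Hsp70 chaperone of the ER, measured 12.90, 12.63 and 12.80 in TNF-treated control cells and 12.83, 12.58 and 12.80 in unstimulated cells. Its difference was 0.03 ± 0.0963, with a 95% interval of -0.18 to 0.25. The second array was the lowest in both groups.

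**Figure D2:**
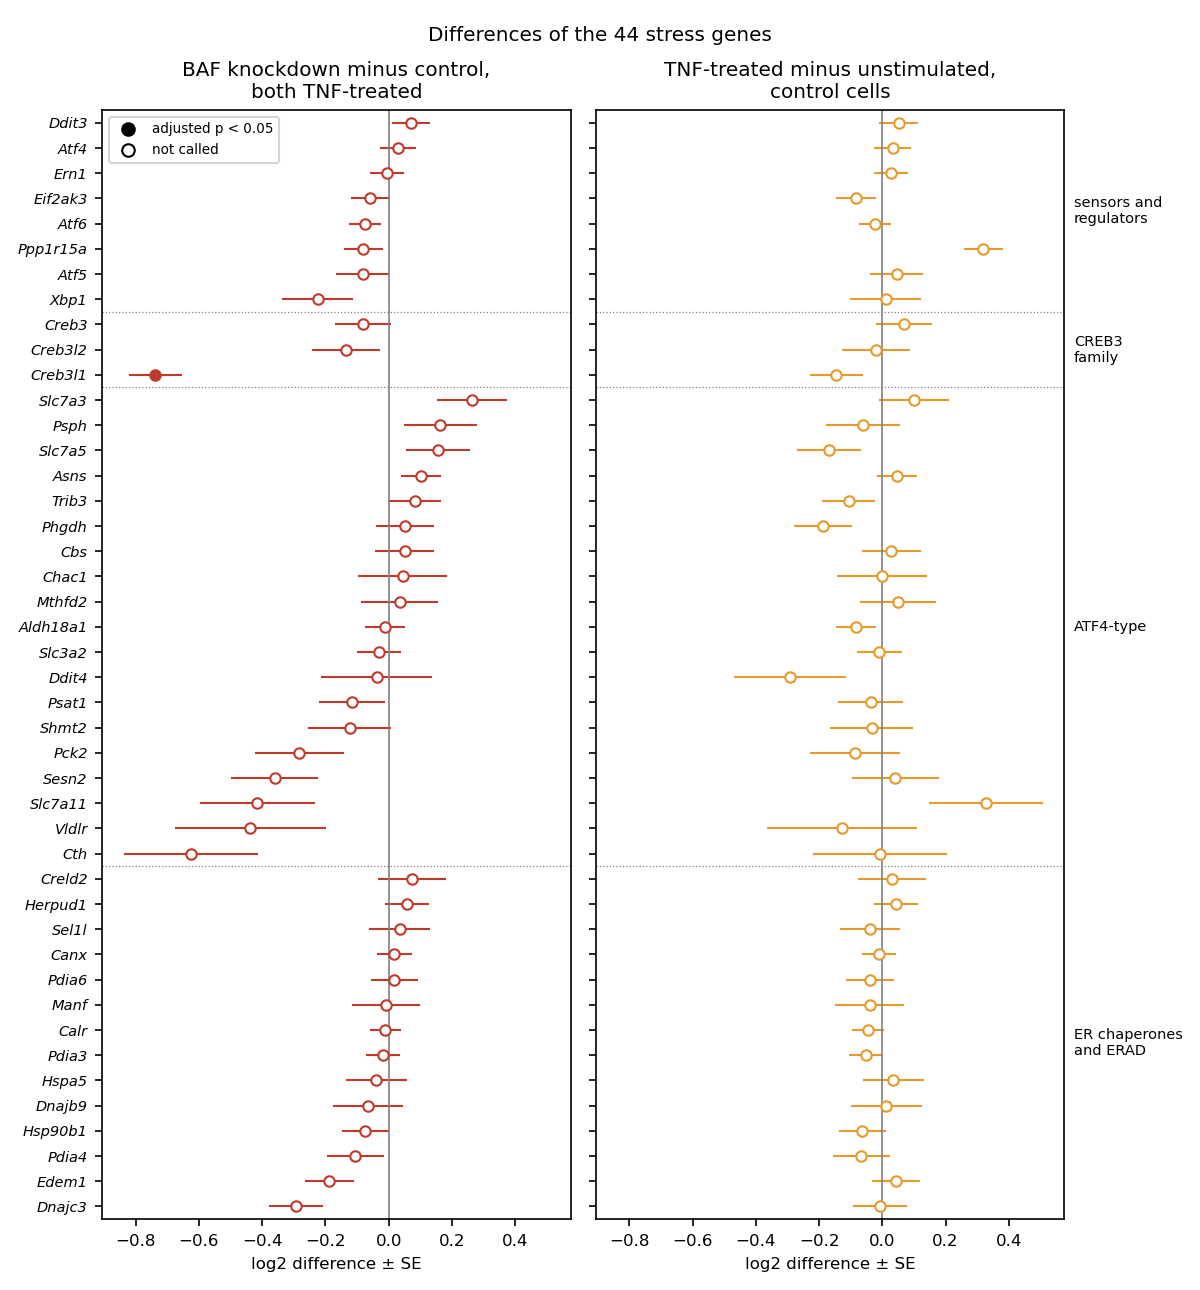
Log2 differences (horizontal axis) with their SE for the 44 genes, one row per gene and grouped by role; the left panel sets BAF-knockdown cells and the right panel TNF-treated control cells against their controls, and a filled point is a gene called by limma. Creb3l1 at -0.74 in the left panel is the only filled point, and the ER chaperone genes lie closer to 0 than the ATF4-type genes (median size 0.048 against 0.117 with knockdown, and 0.0397 against 0.0615 after TNF-α).

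With BAF knockdown, the 1 gene called among the 44 was Creb3l1 (Oasis), a transcription factor held in the ER membrane until stress releases it, known for its role in collagen secretion in bone. It measured 9.17, 9.40 and 9.14 in knockdown cells, 10.06, 9.91 and 9.96 in TNF-treated control cells and 10.16, 10.02 and 10.19 in unstimulated control cells. Every knockdown array lay below every control array, and TNF-α itself was accompanied by a difference of only -0.15 ± 0.0827 in control cells (adjusted p = 1). The difference with knockdown was -0.74 ± 0.0827 (SE), a 1.67-fold fall (limma adjusted p = 0.0209), with a 95% interval of -0.93 to -0.55. The 3 replicate pairs gave -0.89, -0.50 and -0.82. It was called lower as were 0.102% of all genes, and 0 of the 44 genes were called higher, against 0.0355% of all genes. Without adjustment, p was under 0.05 for 6 lower genes and 1 higher gene (4.75% and 3.69% of all genes). Under -0.3, which is the rule of the methods for dependence on BAF, lay 5 genes, Creb3l1, Cth, Vldlr, Slc7a11 and Sesn2 (11.4% of the 44, against 3.27% of all genes). The share over all genes includes dim genes, and the median SE was 0.0911 in the 44 and 0.0728 over all genes, so the shares are not on a like basis. The study gives its own share of BAF-dependent genes for expressed genes. The methods' t-test, which they use for induction only, was applied here to the knockdown comparison together with that difference and picked 1 lower, Creb3l1, and 0 higher (1.46% and 0.741% of all genes), and after adjustment 0 of the 44 and 0 of all genes. The blocked fit likewise called Creb3l1 lower (adjusted p = 0.00591) and 0 higher, against 2.33% and 0.98% of all genes.

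The call for Creb3l1 held in 3 of 9 fits that each left out 1 array and was lost without control_ns_1 (adjusted p = 0.068), control_st_1 (0.146), control_st_2 (0.0534), control_st_3 (0.145), BAFkd_st_1 (0.116) or BAFkd_st_3 (0.11), while its difference stayed between -0.82 and -0.69. Its relatives were not called. Creb3 gave 10.81, 10.74 and 10.85 in knockdown cells and 10.92, 10.95 and 10.77 in TNF-treated control cells, a difference of -0.08. Creb3l2, another factor of secretory cells, gave 9.91, 10.18 and 10.12 in knockdown cells and 10.16, 10.27 and 10.19 in TNF-treated control cells, a difference of -0.13. Both ranges overlapped, and the 95% intervals were -0.28 to 0.12 for Creb3 and -0.38 to 0.11 for Creb3l2, neither of which reaches the interval of Creb3l1. No direct test between the 3 genes was made.

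The sensors and the regulators that act directly after them differed under knockdown by between -0.22 and 0.07, and 0 of the 8 were called (0 also at an unadjusted p under 0.05). Atf4 measured 10.64, 10.73 and 10.65 in knockdown cells and 10.72, 10.56 and 10.66 in TNF-treated control cells, a difference of 0.03 with a 95% interval of -0.10 to 0.16. Ern1 had 8.91, 8.93 and 8.93 in knockdown cells and 8.93, 8.93 and 8.93 in TNF-treated control cells, with values exactly equal between some arrays. Such ties occurred in 9 of the 44 genes and in 50.9% of all transcript clusters, and they are in the deposited values. Atf6 lay at 9.76, 9.76 and 9.75 in knockdown cells against 9.82, 9.82 and 9.87 in TNF-treated control cells, so its groups were separated, yet by -0.07 only (adjusted p = 0.815). Eif2ak3 differed by -0.06, Atf5 by -0.08 and Ddit3 by 0.07. Xbp1 showed the lowest difference of these 8 genes, with 11.38, 11.80 and 11.44 in knockdown cells against 11.73, 11.64 and 11.92 in TNF-treated control cells (-0.22 ± 0.112, adjusted p = 0.674). Its second knockdown array lay within the range of the control cells and the other 2 below it.

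**Figure D3:**
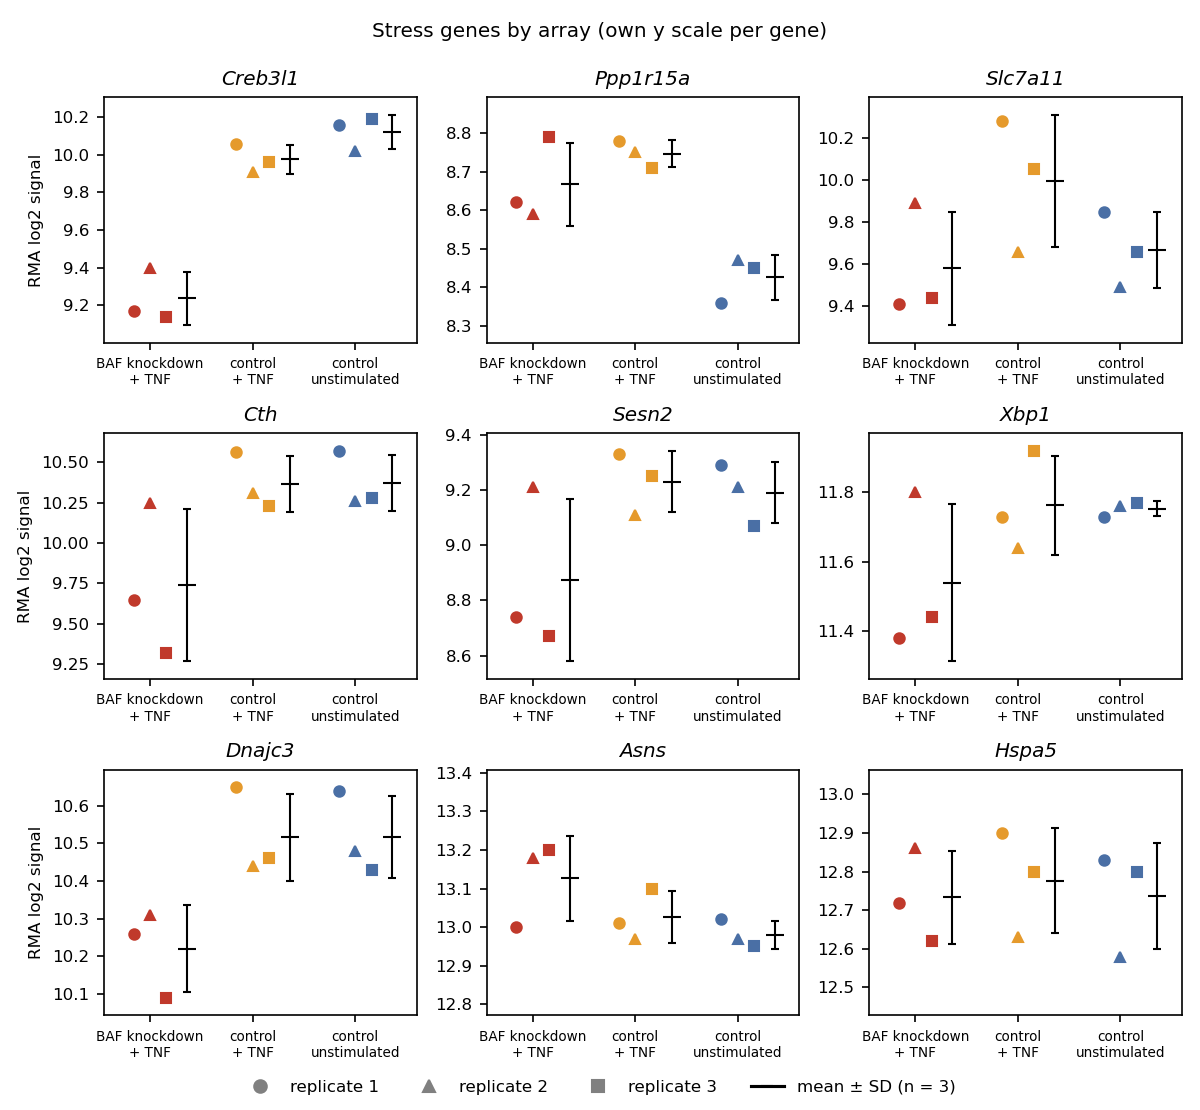
Log2 signal of selected genes on every array (vertical axis), with BAF-knockdown, TNF-treated control and unstimulated control cells from left to right, 3 arrays each, and bars for the group mean ± SD. Creb3l1 is separated between knockdown and control cells, whereas for Cth, Sesn2 and Slc7a11 the second knockdown array lies away from the other 2.

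The 19 ATF4-type genes were spread to both sides of 0 under knockdown, with 9 above and 10 below and a median difference of -0.0122, against 0.00879 over all genes, of which 54.5% lay above and 45.5% below. This median, too, changed sign, to 0.0205 without BAFkd_st_1 and 0.0143 without BAFkd_st_3. Their differences were spread more widely than those of the chaperones, and so were their replicates. The median SE was 0.116 in the ATF4-type genes and 0.0809 in the ER chaperone genes, and the median SD among knockdown arrays was 0.188 and 0.0753. The median size of their differences was 0.117, against 0.048 in the ER chaperone genes and 0.0568 over all genes, and the quartiles were -0.203 and 0.0673, against -0.0724 and 0.0183 in the ER chaperone genes. A difference under -0.3, the threshold by which the study's methods define dependence on BAF, was reached by 4 ATF4-type genes (21.1%), by 0 ER chaperone genes and by 3.27% of all genes. The last share includes dim genes, and the median SE over all genes was 0.0728. Leaving out single arrays gave 2 (without BAFkd_st_1) to 5 such ATF4-type genes. These 4 were Cth, Vldlr, Slc7a11 and Sesn2, and limma called none of them. At an unadjusted p under 0.05, 3 ATF4-type genes were lower and 1 higher (4.75% and 3.69% of all genes). Differences over 0.3 were reached by 0 of the 44 genes, against 1.87% of all genes. The contrast between the 2 classes is a description, since genes of a class share regulators and are no replicates.

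Cth, the enzyme that makes cysteine in the transsulphuration pathway, showed the lowest mean difference among them. It measured 9.65, 10.25 and 9.32 in knockdown cells, against 10.56, 10.31 and 10.23 in TNF-treated control cells and 10.57, 10.26 and 10.28 in unstimulated cells. The second knockdown array fell inside the control range and the others far below it, with pair differences of -0.91, -0.06 and -0.91, so that the mean difference of -0.63 ± 0.212 was not called (adjusted p = 0.409). The second knockdown array was likewise the highest for Slc7a11, with 9.41, 9.89 and 9.44 in knockdown cells against 10.28, 9.66 and 10.05 in TNF-treated control cells. Its pairs were -0.87, 0.23 and -0.61 and its mean difference -0.42 (adjusted p = 0.585), set against the same TNF-treated control arrays as its difference after TNF-α. Sesn2, a leucine sensor that restrains mTORC1, had 8.74, 9.21 and 8.67 in knockdown cells against 9.33, 9.11 and 9.25 in TNF-treated control cells. Pairs of -0.59, 0.10 and -0.59 gave Sesn2 a mean difference of -0.36 ± 0.137 (adjusted p = 0.484). Vldlr, a lipoprotein receptor, differed in its pattern, with 8.70, 9.67 and 9.44 in knockdown cells against 9.53, 9.96 and 9.64 in TNF-treated control cells, and its difference of -0.44 ± 0.238 became -0.15 without BAFkd_st_1.

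The other ATF4-type genes lay between -0.28 and 0.26. Pck2, the mitochondrial PEP carboxykinase, gave pair differences of -0.60, 0.03 and -0.28 between knockdown and TNF-treated control cells, with a mean of -0.28. Slc7a3, a cationic amino acid transporter, had the highest difference at 0.26 (adjusted p = 0.556), with 6.65, 6.48 and 6.95 in knockdown cells against 6.33, 6.48 and 6.47 in TNF-treated control cells. The signal of Slc7a3 lay close to the first quartile of each array, 6.38 to 6.46, and is therefore dim. Psph, the last step of serine synthesis, and Slc7a5 each differed by 0.16. Asns, asparagine synthetase and a standard marker of Atf4 activity, measured 13.00, 13.18 and 13.20 in knockdown cells and 13.01, 12.97 and 13.10 in TNF-treated control cells, a difference of 0.10 with a 95% interval of -0.04 to 0.25. Psat1 and Shmt2, also of serine and glycine synthesis, each differed by -0.12.

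The second knockdown array stood apart across this class. It exceeded both other knockdown arrays in 16 of the 19 ATF4-type genes (84.2%), in 7 of the 14 ER chaperone genes (50%) and in 29.4% of all genes. Expressed as deviation from the mean of each gene over the 9 arrays, the median ATF4-type gene was at -0.128, 0.132 and -0.094 on the 3 knockdown arrays. It was at 0.00668, -0.0754 and 0.0308 in TNF-treated control cells, and unstimulated cells gave 0.115, -0.0636 and 0.0284. For the ER chaperone genes the knockdown arrays were at -0.0314, -0.0567 and -0.0292. Within replicate pairs, the median difference of the ATF4-type genes was -0.126, 0.212 and -0.0992, with 16, 4 and 14 of the 19 genes below 0 in the 3 pairs. The ER chaperone medians were -0.101, 0.00171 and -0.0168, and those over all genes 0.0227, -0.00519 and -0.00233.

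Without the second knockdown array, the knockdown comparison called 3 of the 44 genes lower and 0 higher, where 0.523% and 0.259% of all genes were called. These were Creb3l1 (-0.82, limma adjusted p = 0.00455), Cth (-0.88, adjusted p = 0.0482) and Sesn2 (-0.53, adjusted p = 0.0483). The median difference became -0.08 over the ATF4-type genes and -0.0545 over the ER chaperone genes. That array also had the smallest score of the knockdown arrays on the first principal component of all genes (4, against 17.8 and 22.6). Replicate 2 had the smallest score in TNF-treated control cells too (-13.3, against -2.41 and 1.94), and in unstimulated cells (-19.8, against -9.61 and -1.26). The Smarca4 signal of the second knockdown array was the highest of the 3. The part of the residual Smarca4 in the pattern was not tested.

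**Figure D4:**
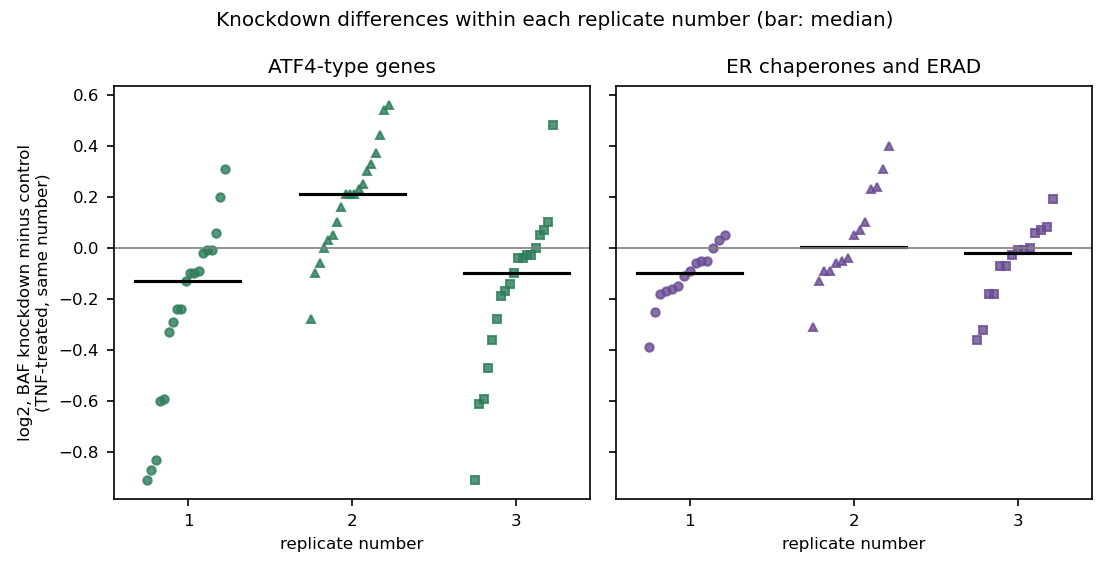
Differences between BAF-knockdown and TNF-treated control cells within each replicate pair (vertical axis, log2 difference; 1 point per gene, bars for the class medians) for ATF4-type and ER chaperone genes. The median ATF4-type gene is below 0 in the pairs 1 and 3 and above 0 in pair 2, and the median ER chaperone gene is at -0.101, 0.00171 and -0.0168.

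The chaperones and folding enzymes of the ER differed by between -0.29 and 0.07 under knockdown, and 0 of the 14 were called. At an unadjusted p under 0.05, 2 were lower (4.75% of all genes). Hspa5 measured 12.72, 12.86 and 12.62 in knockdown cells and 12.90, 12.63 and 12.80 in TNF-treated control cells, a difference of -0.04 with a 95% interval of -0.26 to 0.18. Calreticulin (Calr) and calnexin (Canx), the lectin chaperones of glycoproteins, differed by -0.01 and 0.02 with intervals of -0.12 to 0.10 and -0.11 to 0.14, and the isomerase Pdia3, which works with them, by -0.02. Grp94 (Hsp90b1), the Hsp90 of the ER, differed by -0.07 and Pdia4 by -0.11, and the highest differences were those of Creld2 at 0.07, Herpud1 at 0.06 and Sel1l at 0.03. Of the 14 genes, 5 were above 0 and 9 below, with a median of -0.0141 that became 0.00746 without control_st_1.

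There were 2 ER genes with differences beyond the rest. Dnajc3 (p58IPK), a co-chaperone of BiP that was first described as an inhibitor of eIF2α kinases, had 10.26, 10.31 and 10.09 in knockdown cells against 10.65, 10.44 and 10.46 in TNF-treated control cells. All knockdown arrays were below all control arrays, and the 3 pairs gave -0.39, -0.13 and -0.36. The difference of -0.29 ± 0.0852 had an unadjusted p of 0.0077 and a limma adjusted p of 0.297 (0.0504 with the block). Edem1, which extracts misfolded glycoproteins for degradation, had 10.83, 10.65 and 10.77 in knockdown cells against 11.01, 10.97 and 10.84 in TNF-treated control cells (-0.19 ± 0.0767, adjusted p = 0.54). Groups without overlap and lower in knockdown cells were found for 4 of the 44 genes (Atf6, Creb3l1, Dnajc3 and Edem1), against 5.47% of all genes, and groups higher without overlap for 0 of 44, against 4.63%. Dnajc3 is among the 7 genes whose window held the ER stress response element, and the other 6 differed by between -0.07 and 0.07.

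**Figure D5:**
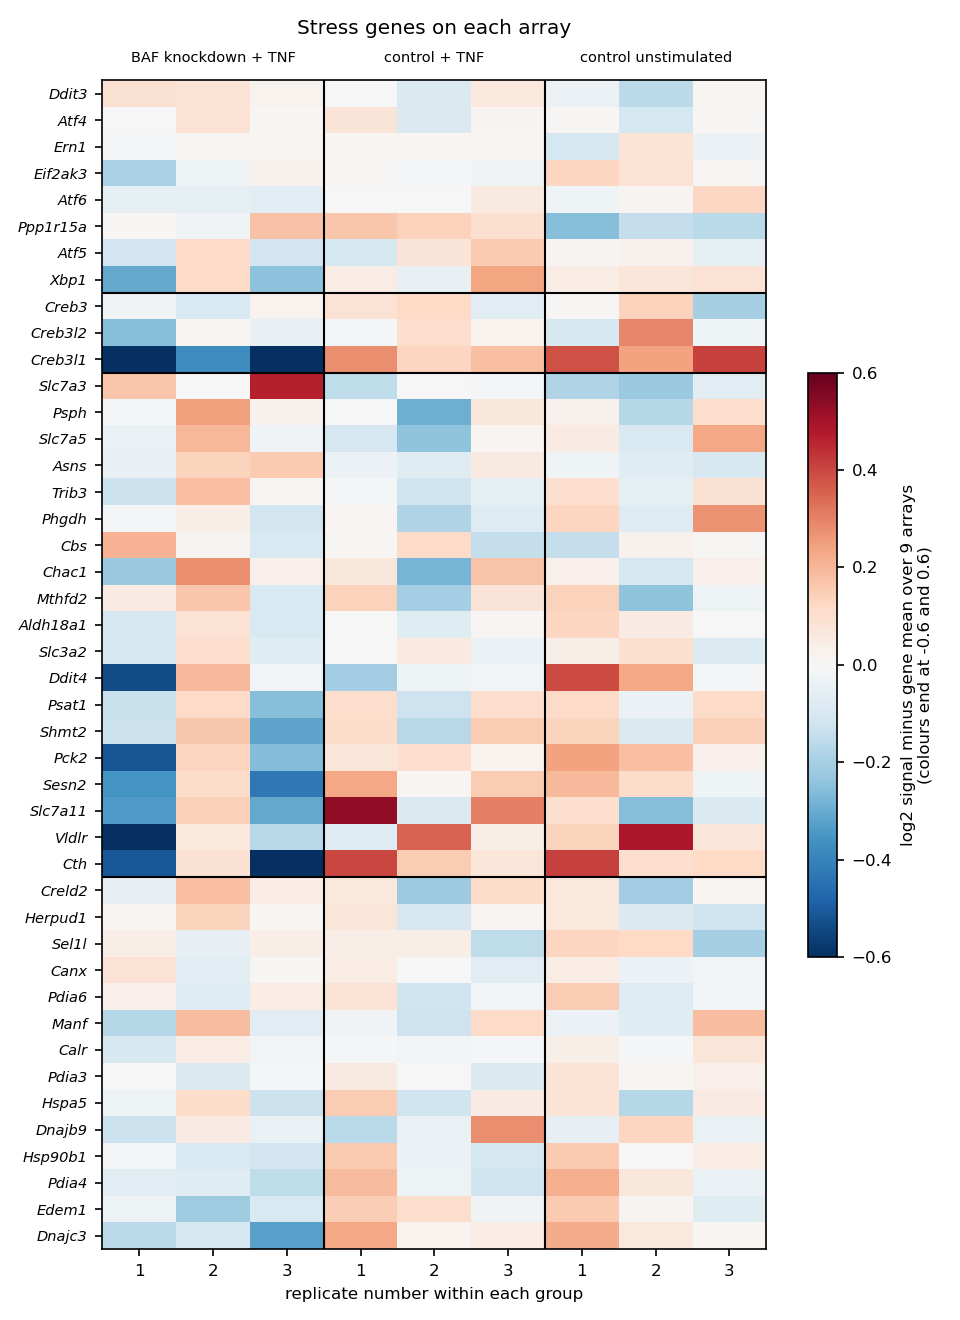
Log2 signal of the 44 genes (rows, grouped by role) on the 9 arrays (columns, BAF-knockdown cells at the left, then TNF-treated control and unstimulated control cells), coloured by deviation from the mean of each gene over the 9 arrays. The blue Creb3l1 cells of all 3 knockdown arrays stand beside ATF4-type rows in which the second knockdown array differs from the other 2.

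Further genes of the same pathways were examined as lists. Of 27 other ER folding and degradation genes, 22 lay below 0 under knockdown, against 45.5% of all genes, with a median of -0.062. Limma called 0 lower and 0 higher, against 0.102% and 0.0355% of all genes. At an unadjusted p under 0.05, 3 were lower and 1 higher (4.75% and 3.69% of all genes). With the replicate block, 2 were called lower, the isomerases Pdia5 (-0.37, adjusted p = 0.0599 without and 0.0127 with the block) and Txndc5 (-0.30, adjusted p = 0.104 and 0.0181), where the blocked fit called 2.33% of all genes lower. The highest value was that of the oxidase Ero1a at 0.27. After TNF-α the same list ran between -0.19 (Sec61b) and 0.22 (Ero1a), with 0 called in either fit and 0 at an unadjusted p under 0.05.

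Among the 19 other regulators, 1 fell with knockdown (0.102% of all genes), and 3 were lower at an unadjusted p under 0.05 (4.75% of all genes). Bcl2l11 (Bim), a cell death gene that Chop can raise, measured 9.0, 8.91 and 8.96 in knockdown cells against 9.48, 9.72 and 9.65 in TNF-treated control cells (-0.66 ± 0.0777, limma adjusted p = 0.0243). That call was lost without control_ns_1, control_st_2, control_st_3, BAFkd_st_1 or BAFkd_st_3, with adjusted p up to 0.145, and its difference stayed between -0.73 and -0.61. The highest of the list was Bbc3 at 0.10. Atf3 did not follow it, with 9.11, 8.76 and 9.0 in knockdown cells against 8.99, 8.76 and 9.0 in TNF-treated control cells (0.04, adjusted p = 0.963).

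A further list of 21 genes held 14 enzymes and transporters of amino acid supply and 7 other genes linked to Atf4 (Cebpa, Stc2, Fgf21, Eif4ebp1, Gpnmb, Ndrg1 and Vegfa). Under knockdown 15 of the 21 lay below 0 (8 of the 14 and 7 of the 7), against 45.5% of all genes. Among the 7, Cebpa (-0.007493), Fgf21 (-0.002363) and Eif4ebp1 (-0.06) differed by less than their SE, and 4 lay under -0.3. The median was -0.135 over the list, and limma called 0. At an unadjusted p under 0.05, 3 were lower and 1 higher (4.75% and 3.69% of all genes). The blocked fit called 3 lower and 1 higher, where it called 2.33% and 0.98% of all genes. Aldh1l2, a mitochondrial folate enzyme, had 9.30, 10.06 and 9.19 in knockdown cells against 10.70, 10.65 and 10.58 in TNF-treated control cells, a difference of -1.13 (adjusted p = 0.0816 without and 0.0121 with the block). The second knockdown array was again the highest of the 3, and all 3 lay below the controls. The amino acid transporter Slc43a1 differed by -0.41 (adjusted p = 0.603 and 0.046) and the angiogenic factor Vegfa by -0.33 (0.22 and 0.0172), whereas the cationic transporter Slc7a1 was higher by 0.52 (0.11 and 0.00451). Vegfa averaged 11.54 in unstimulated cells, 11.85 in TNF-treated control cells and 11.53 in knockdown cells, so its knockdown level was close to that of unstimulated cells. After TNF-α the highest of this list was Slc7a2 at 0.61 (adjusted p = 0.363) and the lowest Slc1a4 at -0.21.

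The 18 cytosolic aminoacyl-tRNA synthetases, many of them Atf4 targets, included 14 of 18 above 0 under knockdown, against 54.5% of all genes. Their median was 0.0667 and their range -0.06 (Wars) to 0.17 (Lars). Limma called 0, and 1 was higher at an unadjusted p under 0.05 (3.69% of all genes). Their pair medians were -0.00633, 0.195 and -0.0195, so that only the median of replicate pair 2 lay above 0. As deviation from each gene's mean, the median synthetase was at 0.0358, 0.0452 and 0.0168 on the knockdown arrays. On the TNF-treated control arrays it was at 0.0323, -0.166 and 0.0171, so the second control array was the one that stood apart. Some single genes, among them Eprs, Iars, Lars, Nars and Rars, were above 0 in all 3 pairs, and others, such as Wars, were not. Of 10 heat shock genes (8 cytosolic, and Hspd1 and Hspe1 of mitochondria) 9 were above 0, against 54.5% of all genes. The pair medians of this list were -0.0281, 0.125 and -0.00191, and Hspb1 was the highest at 0.29. Here too the second TNF-treated control array was low, with a median deviation of -0.126, against 0.00304 on the second knockdown array. Of the 10 heat shock genes, 0 were called (0 also at an unadjusted p under 0.05). Of 8 targets of Nrf2, Nqo1 differed by -0.48 (adjusted p = 0.619, called with the block at 0.016) and Hmox1 by 0.33 (adjusted p = 0.418). After TNF-α, 0 genes of these 3 lists were called, and 1 was lower at an unadjusted p under 0.05 (1.22% of all genes).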

How the data were processed

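RNA was measured on 9 Affymetrix mouse Gene 1.0 ST arrays. The deposited values are log2 signals, which the authors obtained by RMA per the labels (its software is not stated). Transcript clusters with 1 gene symbol were used, the one with the highest mean per gene (19698 genes). Differences were fitted over all 9 arrays by the lmFit and eBayes functions of limma (version 3.58.1, run under R 4.3.3; 6 residual degrees of freedom, two-sided), with Benjamini-Hochberg adjustment over all genes. Replicates were made on different days, and same-numbered arrays deviated together (r of 0.21 to 0.724, against -0.566 to 0.0111 for different numbers), so a second fit held the replicate number as a block. Array medians were 7.77 to 7.83. Arrays give no depth, so their number limits the precision. Only the fit without the block, for the knockdown comparison, was tested on simulated data, in which the arrays were independent and shared no replicate day.

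Members, lists and tests were chosen with earlier results of these data known. Named were called genes, all sensors and CREB3 members, genes with separated groups that differed by at least 0.3, and the 3 highest and lowest of each class, with the extremes of the other lists; other chaperones and Nfe2l2 were named after their values were seen. Alternatives were the block, median centring, array weights, a filter on dim genes, the mean over transcript clusters, eBayes with trend, the methods' t-test (which they use for induced genes only), a difference alone and leaving out each array. Blocked fits without a replicate number were added after seeing the data. Promoter windows came from RefSeq (GRCm38.p6). A planned comparison of CREB3 family proteins is not analysed here.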

Additional observations from a re-analysis of the deposited data

How the results depend on the processing

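Of the results without a left-out array, 273 values of single genes kept their direction and their side of the call threshold under the alternatives. Of the summary values, 57 stayed within a set tolerance of the main fit and 3 moved. For class medians the tolerance was the SD of the array medians within groups. The block, the mean over transcript clusters and eBayes with trend cannot change a difference of these 44 genes, only its p. The filter on dim genes can drop a gene but cannot change its difference. By a difference over 0.3 alone, 2 genes were higher after TNF-α (Ppp1r15a and Slc7a11) and 5 lower with knockdown, and the methods' t-test after adjustment, which they use for induction only, gave 0 lower with knockdown. The replicate block changed no call among the 44 genes. Leaving out single arrays gave 0 to 3 genes called lower with knockdown, the 3 without the second knockdown array. In the blocked fit, leaving out replicate 1 gave 0 of the 44 genes lower, and 0 of all genes in either direction, leaving out replicate 3 gave 0 lower (0.391% of all genes), and leaving out replicate 2 gave 6 lower (Creb3l1, Cth, Slc7a11, Sesn2, Dnajc3 and Xbp1) and 1 higher (Slc7a3), against 2.24% and 1.05% of all genes, with class medians of -0.134 (ATF4-type) and -0.0893 (ER chaperone).

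Over all fits that left out arrays, the class medians ran from -0.078 to 0.0226 (ATF4-type, TNF-α), -0.0484 to 0.0151 (ER chaperone, TNF-α), -0.134 to 0.0474 (ATF4-type, knockdown) and -0.0893 to 0.0166 (ER chaperone, knockdown). Changes of sign of single genes occurred among uncalled differences close to 0. After TNF-α, the fits without single arrays ranged from -0.00384 to 0.0773 for Atf4, -0.0111 to 0.118 for Atf5, -0.0552 to 0.0214 for Atf6, -0.025 to 0.147 for Creb3, -0.0947 to 0.0971 for Creb3l2, -0.0108 to 0.108 for Edem1, -0.0171 to 0.0781 for Ern1, -0.0434 to 0.108 for Hspa5, -0.0485 to 0.153 for Mthfd2, -0.154 to 0.00265 for Pdia4 and -0.069 to 0.0716 for Xbp1. With knockdown they ranged from -0.0153 to 0.0646 for Atf4, -0.0285 to 0.137 for Creld2, -0.102 to 0.00403 for Eif2ak3, -0.00935 to 0.00235 for Ern1 and -0.0277 to 0.0656 for Sel1l. Array weights turned Creb3l2 after TNF-α to 0.00957. The blocked fits without a replicate number turned, after TNF-α, Atf5 to -0.0363, Atf6 to 0.00409, Creb3l2 to 0.064, Ern1 to -0.0164 and Xbp1 to -0.0595, and with knockdown Atf4 to -0.0408, Atf5 to 0.0103, Creld2 to -0.0922, Eif2ak3 to 0.0125, Ern1 to 0.0016, Herpud1 to -0.0316, Psph to -0.0247 and Sel1l to -0.0418. The cause was not tested. With 3 arrays a group, the number of arrays limits what can be called.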
